A study of Homo sapiens with 12 samples.

Results

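The TGF-β response of A549 cells, a human lung adenocarcinoma line, was compared between cells overexpressing the long non-coding RNA LETS1 and cells carrying the empty vector (Co.vec). The quantity described is the interaction, the log2 fold change by TGF-β in LETS1 cells minus the log2 fold change by TGF-β in Co.vec cells. It was taken gene by gene over 12 of the 12 RNA sequencing libraries. The 4 groups, with 3 libraries each, were Co.vec with ligand buffer, Co.vec with TGF-β, LETS1 with ligand buffer and LETS1 with TGF-β. TGF-β was given at 5 ng/mL for 4 h. All 4 groups had been transduced with lentivirus (pCDH-EF1a-PURO, empty or carrying LETS1), had received puromycin at 1 ng/mL from 2 days later and had been kept 3 more days before the ligand. The labels do not say whether the 3 libraries of a group came from separate transductions, so p-values measure the spread between these libraries, which may be technical. A negative interaction means that a gene rose less, or fell more, on TGF-β in LETS1 cells than in Co.vec cells.

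TGF-β acts through a pair of serine/threonine kinase receptors, TGFBR2 and TGFBR1, which phosphorylate SMAD2 and SMAD3. These join SMAD4 in the nucleus and switch on target genes, among them the pathway's own inhibitors SMAD7, PMEPA1 and SKIL. TGF-β also reaches the MAP kinases, whose hallmark is a fast, short-lived wave of immediate early genes: the AP-1 subunits (FOS and JUN families), EGR1, the NR4A orphan receptors, and brakes such as the DUSP phosphatases and the mRNA decay factor ZFP36. In A549 cells TGF-β is widely used to start an epithelial-mesenchymal transition, the loss of epithelial and gain of mesenchymal features.

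Libraries held 19705135 to 20351043 fragments counted in genes. The genes KRT8 (4340 to 6433 CPM, counts scaled to library size, as group means) and KRT18 (1655 to 2655 CPM), epithelial keratins, were abundant in all 4 groups, and 17 of 24 markers of other cell types were under 1 CPM in every library. Those 24 markers summed to 23.5 to 25.5 CPM in Co.vec buffer, 129 to 138 in Co.vec TGF-β, 30.9 to 35.3 in LETS1 buffer and 142 to 160 in LETS1 TGF-β. COL1A1, a TGF-β target, is one of the 24 and reached 147 CPM. No counted gene bears the name LETS1, so overexpression itself could not be looked at in the counts. The third LETS1 buffer library was the highest of its group for 62 of the 97 genes with a negative interaction, and without it 70 negative and 8 positive genes were called. Fragments outside annotated genes came to 2.81% to 2.86% in LETS1 TGF-β, against 3.12% to 3.53% in the other groups.

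The interaction was called (adjusted p under 0.05) for 110 of 16192 genes tested, 0.679%. It was negative for 97 (0.599%) and positive for 13 (0.0803%). Among the 97 negative genes the commonest pattern was a rise on TGF-β in both cell types, smaller in LETS1 cells, seen for 34 genes. Another 19 fell in both, 16 rose in Co.vec cells and fell in LETS1 cells, 14 rose in Co.vec cells without a call in LETS1 cells, and 14 were not called in Co.vec cells and fell in LETS1 cells. The genes in the 16 include ATF3, FOSB, DUSP1, DUSP5, KLF6, KLF10, PPP1R15A, SPRY2, SLC2A3, CLCF1 and KHDC4. Of the 13 positive genes, 7 rose in both cell types, 4 fell in both, SLFN5 rose in LETS1 cells without a call in Co.vec cells, and TAP1 fell in Co.vec cells without a call in LETS1 cells. These counts use the libraries that gave the interaction and describe it rather than test it.

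**Figure D1:**
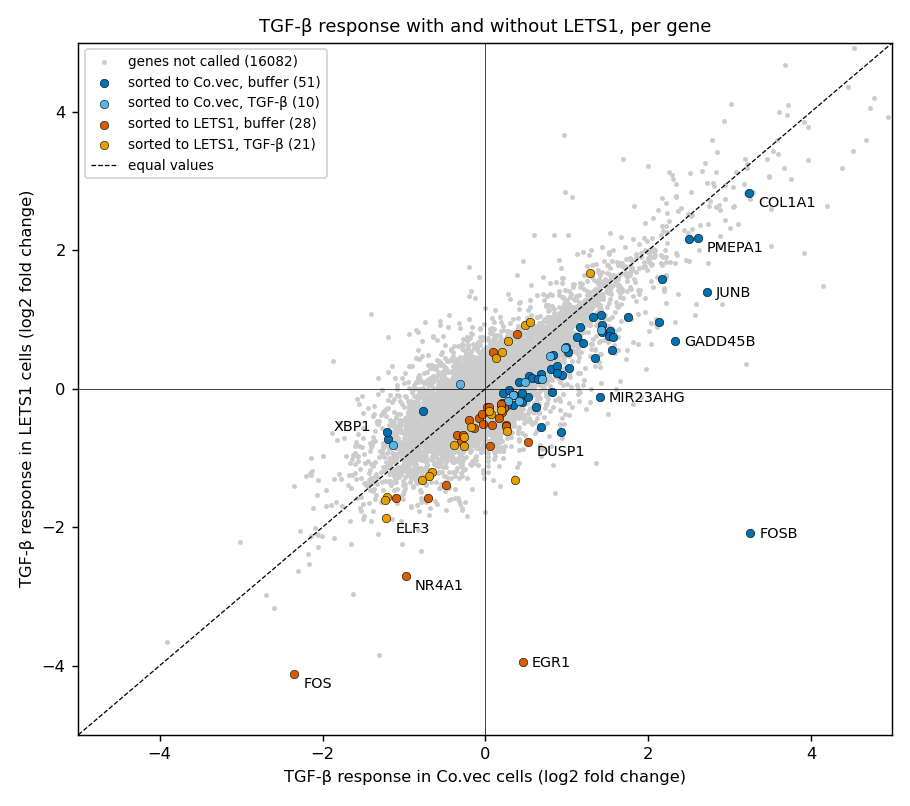
Log2 fold change by TGF-β in Co.vec cells (x axis) against that in LETS1 cells (y axis), 1 point per gene tested, with the 110 genes called for the interaction coloured by the group mean that makes the difference. The dashed line marks equal responses. FOSB, EGR1 and FOS lie far below it, and XBP1 lies above it.

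Similar shares of genes were called on TGF-β in the 2 cell types. TGF-β changed 39.7% of tested genes in Co.vec cells (21.1% rose, 18.6% fell) and 38.7% in LETS1 cells (19.7% rose, 19.1% fell). The median interaction was -0.0050 over all genes tested, -0.02 over the 2686 genes that rose in both cell types and -0.0036 over the 2110 that fell in both. From the 5th to the 95th percentile of all genes tested the interaction ran from -0.494 to 0.411. Library scaling centres the values, so a median near 0 does not show that single genes responded alike. The interaction was negative for 57.2% of the genes that rose in both and for 51.6% of all genes tested. Only 18 genes were called in opposite directions by TGF-β in the 2 cell types. All 18 rose in Co.vec cells and fell in LETS1 cells, and 16 of them had a called interaction.

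Each called gene was then sorted by the group mean that makes the difference. Of the 2 LETS1 effects (in buffer and with TGF-β) the larger picks a ligand state, of the 2 TGF-β responses the larger picks a cell type, and the group in both picks is the one that stands apart. Co.vec buffer was picked for 51 genes (48 negative, 3 positive), LETS1 buffer for 28 (26 negative, 2 positive), LETS1 TGF-β for 21 (15 negative, 6 positive) and Co.vec TGF-β for 10 (8 negative, 2 positive). The buffer groups were thus picked for 74 of the 97 negative genes. The pick is clear, with the larger value at least 2 times the smaller in both pairs, for 44 genes: 20 in Co.vec buffer, 16 in LETS1 buffer, 7 in LETS1 TGF-β and 1 (B3GALT5, a glycosyltransferase gene) in Co.vec TGF-β. For the other 66 genes 2 or more groups contribute.

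**Figure D2:**
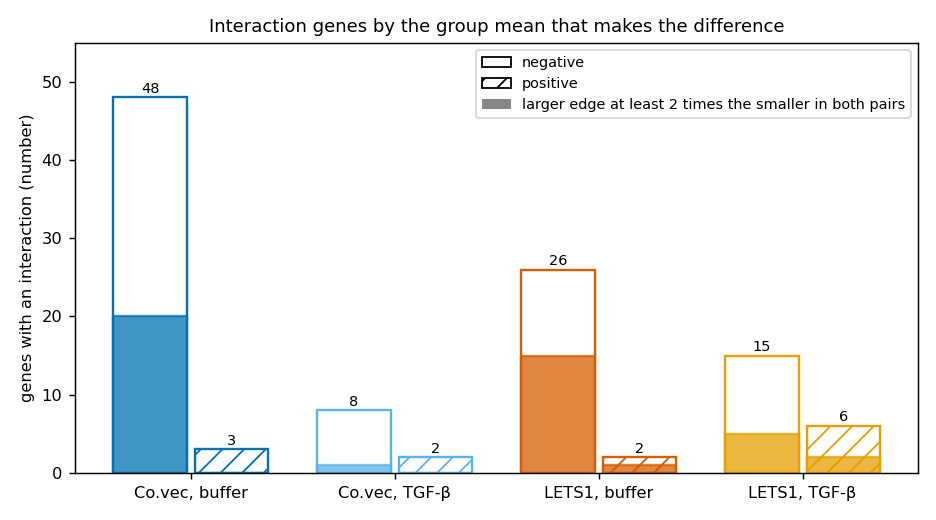
Number of called genes (y axis) by the group whose mean makes the difference (x axis), with plain bars for negative and hatched bars for positive interactions. The filled part counts genes whose pick is clear. Co.vec buffer and LETS1 buffer hold 48 and 26 of the 97 negative genes.

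The interaction equals the LETS1 effect with TGF-β minus that in buffer, so the counts that follow restate the sort in terms of these effects and add no support to it. In buffer, 77 of the 97 negative genes were higher in LETS1 than in Co.vec cells and 1 was lower (C1orf116). Among all genes tested, 8.57% were called higher and 6.56% lower in that comparison. With TGF-β, 10 of the 97 were higher and 26 lower, against 7.58% and 6.50% of all genes. For 61 of the 97 the pattern was a higher level in LETS1 buffer cells and no call with TGF-β. All 3 LETS1 buffer libraries lay above all 3 Co.vec buffer libraries for 82 of the 97, and for 16.8% of all genes tested. With TGF-β the LETS1 libraries lay above for 17 of the 97 (17.5%) and below for 31 (32.0%), against 14.5% and 14.2% of all genes tested.

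**Figure D3:**
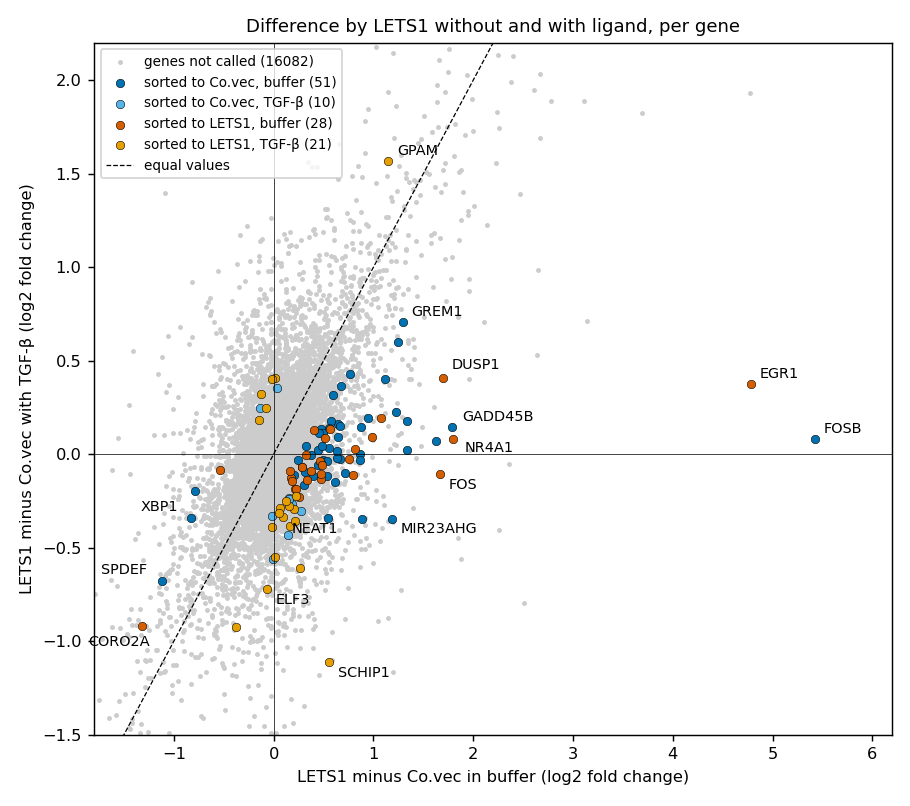
LETS1 minus Co.vec log2 fold change in buffer (x axis) against the same with TGF-β (y axis), 1 point per gene, with called genes coloured by the group that makes the difference. Points to the right of 0 on x and near 0 on y are genes higher in LETS1 cells in buffer alone. EGR1, FOSB, NR4A1, FOS and GADD45B are among them, and ELF3 and NEAT1 lie near 0 on x and below 0 on y.

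The sequences just upstream of 3 early response genes, picked by hand among called genes, are shown. Transcription factors can bind short motifs there. All 3 sequences hold matches, but with a choice by hand this is no result. Any part of such factors in the interaction was not tested. Each is the 250 bases before the RefSeq transcription start (GRCh38.p14), on the gene's own strand. Capitals mark, on either strand, the cAMP response element TGACGTCA, its shorter form TGACG (which the full element contains), the AP-1 motif TGACTCA, and the CArG box to which serum response factor binds. EGR1 (chr5:138465229-138465478, plus strand) encodes a zinc finger factor, DUSP1 (chr5:172771196-172771445, minus strand) a MAP kinase phosphatase and PPP1R15A (chr19:48872171-48872420, plus strand) a regulatory subunit of protein phosphatase.
EGR1: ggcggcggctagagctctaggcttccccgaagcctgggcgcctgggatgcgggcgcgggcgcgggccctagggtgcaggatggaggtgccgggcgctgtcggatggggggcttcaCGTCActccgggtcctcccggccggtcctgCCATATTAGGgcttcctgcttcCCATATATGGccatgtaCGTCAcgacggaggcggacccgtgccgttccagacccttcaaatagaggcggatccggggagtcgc
DUSP1: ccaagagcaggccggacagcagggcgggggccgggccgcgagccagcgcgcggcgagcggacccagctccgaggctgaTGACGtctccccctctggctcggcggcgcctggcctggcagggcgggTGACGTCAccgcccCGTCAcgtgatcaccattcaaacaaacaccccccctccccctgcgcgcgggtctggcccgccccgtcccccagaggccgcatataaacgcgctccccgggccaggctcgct
PPP1R15A: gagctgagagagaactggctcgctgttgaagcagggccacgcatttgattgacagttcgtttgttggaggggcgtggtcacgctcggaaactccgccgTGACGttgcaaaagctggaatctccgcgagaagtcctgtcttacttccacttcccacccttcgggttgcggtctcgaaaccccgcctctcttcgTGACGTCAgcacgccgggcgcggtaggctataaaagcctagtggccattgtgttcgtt
EGR1 has a pair of CArG boxes, starting 105 and 83 bases before the start, and TGACG at 135 and 66. DUSP1 has TGACGTCA at 125 bases before the start and PPP1R15A at 58. Over windows from 250 bases before to 50 after the start, 78 of the 97 negative genes had 121 windows in the table. TGACGTCA was in 8 of these (6.61%), against 2.73% of the windows of all genes tested, and the CArG box in 5 (4.13%) against 1.09%. TGACG was in 31.4% against 31.0%, TGACTCA in 5.79% against 3.82%, and the 6-base SMAD motif CAGACA in 22.3% against 13.7%. Of the other motifs scanned, the TEAD motif GGAATG was in 16.5% against 11.6% and the E-box CACGTG in 9.09% against 9.08%. The EGR motif GCGTGGGCG was in 0% against 1.21%, the SMAD palindrome GTCTAGAC in 0% against 0.172% and the sterol element TCACCCCAC in 0% against 0.368%. Windows of 1 gene can overlap, as in RND3, whose overlapping windows are both among the 5 with a CArG box. NR4A1, ATF3 and GADD45B, also called, had none of the marked motifs in their windows. FOS, FOSB, JUN and JUNB had TGACG but no TGACGTCA or CArG box. A match describes the letters in the window and is not a measured binding site.

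EGR1 was high in LETS1 buffer cells and low in the other 3 groups. In Co.vec buffer the 3 libraries read 2.62, 2.13 and 2.50 CPM, and in Co.vec TGF-β 3.85, 2.99 and 3.16. In LETS1 buffer they read 53.8, 62.3 and 84.1 CPM, and in LETS1 TGF-β 3.59, 4.41 and 4.98. The LETS1 buffer libraries stood far above the other 9, all of which were under 5 CPM. The TGF-β response was 0.46 in Co.vec cells, not called, and -3.94 in LETS1 cells, and the interaction was -4.41 (SE 0.434, adjusted p = 0.000628). The gene lies at chr5:138465490-138469315, plus strand (GRCh38).

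FOS (chr14:75278774-75282230, plus strand) fell on TGF-β in both cell types, from a higher level in LETS1 cells. Its libraries read 18.2, 19 and 24.3 CPM in Co.vec buffer and 4.42, 3.86 and 3.81 in Co.vec TGF-β. They read 57.3, 68.9 and 69.2 CPM in LETS1 buffer and 4.46, 2.96 and 3.81 in LETS1 TGF-β. The buffer groups did not overlap, while the TGF-β groups did. The log2 fold change by TGF-β was -2.35 in Co.vec cells and -4.12 in LETS1 cells, an interaction of -1.77 (SE 0.212, adjusted p = 1.58e-05).

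NR4A1, an orphan nuclear receptor (chr12:52022832-52059507, plus strand), followed the same course. It read 22.6, 25.1 and 24 CPM in Co.vec buffer and 11.1, 12.9 and 12.3 in Co.vec TGF-β, then 73.6, 74.4 and 102 in LETS1 buffer and 14.2, 13.1 and 11 in LETS1 TGF-β. The level fell by TGF-β in both cell types and the TGF-β groups overlapped. The interaction was -1.72 (SE 0.215, adjusted p = 0.00163). Exons of NR4A1 overlap AC025259.3 on the other strand. The strand setting of the counting is not known, so fragments from the shared bases may have been left out as ambiguous or given to the wrong gene. NR4A2, its close relative, had an interaction of -0.90 (SE 0.154, adjusted p = 0.000475).

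DUSP1 (chr5:172768090-172771195, minus strand) rose on TGF-β in Co.vec cells and fell in LETS1 cells. Co.vec libraries went from 56.4, 60.0 and 63.1 CPM in buffer to 98.4, 83.4 and 75.1 with TGF-β. LETS1 libraries went from 183, 189 and 209 CPM in buffer to 119.7, 114 and 108 with TGF-β. LETS1 was higher in both ligand states (1.70 and 0.41 as log2 fold changes, both called), and neither pair of groups overlapped. The interaction was -1.29 (SE 0.109, adjusted p = 1.10e-06). PPP1R15A, which helps restart translation after stress, went from 55.6, 57.2 and 58.2 to 68.7, 69 and 66.1 CPM in Co.vec cells. In LETS1 cells it went from 96.4, 93 and 98.8 to 69.2, 64.4 and 66.7 CPM, and the interaction was -0.78 (SE 0.0699, adjusted p = 6.39e-10).

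A further 8 named genes sorted to LETS1 buffer had a higher level in LETS1 buffer and no call between the cell types after TGF-β. They are KLF10, a TGF-β-inducible zinc finger factor (interaction -0.78, SE 0.0821, adjusted p = 1.55e-07), ZFP36, which destabilises AU-rich mRNAs (-0.90, SE 0.0993, adjusted p = 4.49e-06), HES1, a Notch target and repressor (-0.88, SE 0.134, adjusted p = 0.000106), and KLF6 (-0.51, SE 0.0737, adjusted p = 3.61e-05), together with DUSP5, DUSP4, EREG and AJUBA. DUSP5 and DUSP4, phosphatases of the MAP kinases, had interactions of -0.58 and -0.26. In EREG, an EGFR ligand, the interaction was -0.43, and in AJUBA, a LIM protein of the Hippo pathway, -0.35. Over the 26 negative genes of this class the median TGF-β response was -0.0038 in Co.vec cells and -0.53 in LETS1 cells. The higher level in LETS1 buffer and the larger, downward response in LETS1 cells follow from the sort.

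**Figure D4:**
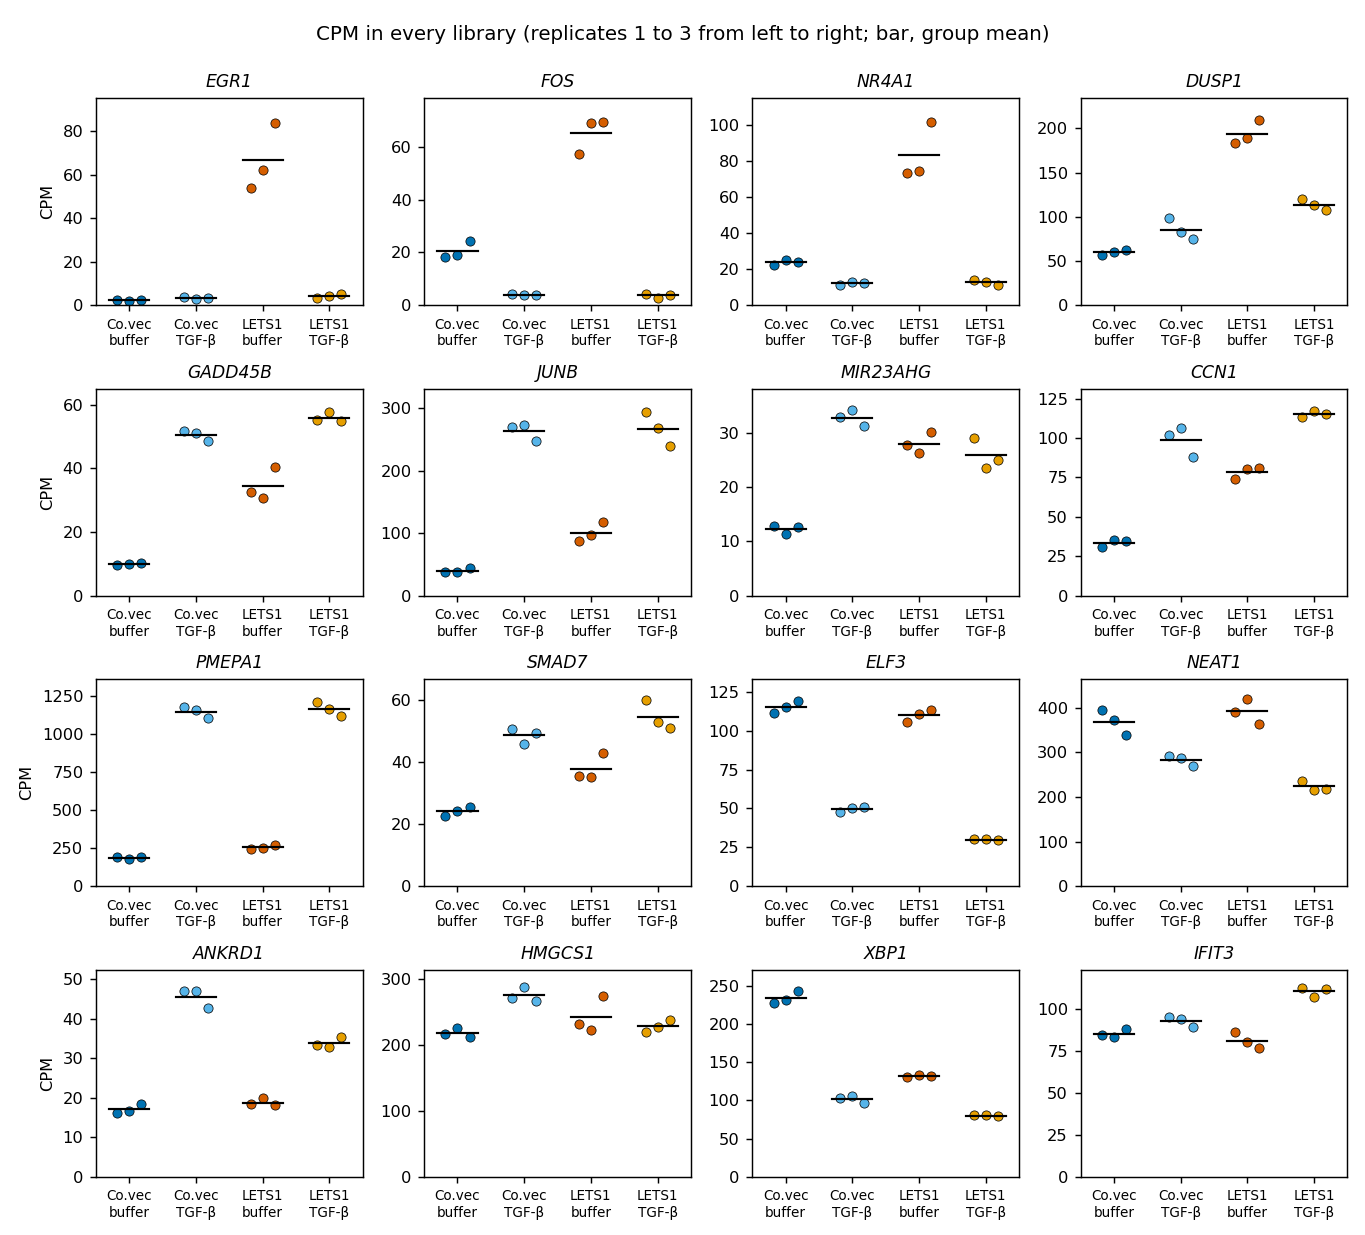
CPM in each of the 12 libraries for 16 called genes, replicates left to right within a group, with a bar at the group mean and each axis starting at 0. EGR1, FOS, NR4A1 and DUSP1 are highest in LETS1 buffer, GADD45B, JUNB and PMEPA1 are lowest in Co.vec buffer, and ELF3 and NEAT1 are lowest in LETS1 TGF-β.

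In the largest class, Co.vec buffer, all 48 negative genes were called higher in LETS1 buffer and in Co.vec TGF-β than in Co.vec buffer. The sort fixes both directions for a negative interaction, so they are no separate result. GADD45B, a stress-induced growth arrest gene and early SMAD target (chr19:2476122-2478259, plus strand), read 9.78, 10.1 and 10.2 CPM in Co.vec buffer and 51.7, 51.2 and 48.6 in Co.vec TGF-β. It read 32.6, 30.8 and 40.4 CPM in LETS1 buffer and 55.1, 57.8 and 54.8 in LETS1 TGF-β. LETS1 cells without ligand lay between the other 2 levels and overlapped with neither. TGF-β raised it by 2.33 on the log2 scale in Co.vec cells and by 0.69 in LETS1 cells, an interaction of -1.64 (SE 0.107, adjusted p = 3.58e-13).

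FOSB, an AP-1 subunit (chr19:45467995-45475179, plus strand), had the most negative interaction of the named genes, -5.34 (SE 0.548, adjusted p = 0.000944). It read 0.445, 0.446 and 0.551 CPM in Co.vec buffer and 5.45, 5.00 and 3.46 in Co.vec TGF-β, then 17.6, 16.9 and 28 in LETS1 buffer and 5.38, 5.62 and 3.71 in LETS1 TGF-β. It rose in Co.vec cells and fell in LETS1 cells, and the TGF-β groups overlapped. The Co.vec buffer level is under 1 CPM, and its SE is the largest among the named genes. ATF3, a stress-induced member of the same family (chr1:212565334-212620777, plus strand), read 6.77, 6.59 and 5.31 CPM in Co.vec buffer and 12.5, 10.0 and 13 in Co.vec TGF-β. It read 18.5, 18.6 and 20.7 CPM in LETS1 buffer and 11.9, 11.7 and 13.8 in LETS1 TGF-β. It rose on TGF-β in Co.vec cells and fell in LETS1 cells, an interaction of -1.56 (SE 0.145, adjusted p = 1.51e-09).

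JUNB and JUN, AP-1 subunits, rose on TGF-β in both cell types and by less in LETS1 cells. JUNB (chr19:12791496-12793315, plus strand) read 37.3, 38.7 and 44.2 CPM in Co.vec buffer and 269.7, 273 and 248 in Co.vec TGF-β. It read 88.3, 96.9 and 118 CPM in LETS1 buffer and 294, 269 and 239 in LETS1 TGF-β. The buffer groups did not overlap and the TGF-β groups did. The interaction was -1.32 (SE 0.165, adjusted p = 0.00438) for JUNB, whose exons overlap HOOK2 on the other strand, and -1.16 (SE 0.141, adjusted p = 0.00140) for JUN. CCN1, a secreted matrix protein and YAP/TAZ target (chr1:85580761-85583962, plus strand), went from 30.8, 35.4 and 34.7 to 102, 106 and 87.7 CPM in Co.vec cells and from 74.2, 80.4 and 81 to 114, 117 and 115 in LETS1 cells. LETS1 libraries lay above Co.vec libraries in both ligand states, and the interaction was -0.997 (SE 0.0845, adjusted p = 3.40e-10).

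MIR23AHG, the host transcript of a microRNA cluster (chr19:13823880-13842928, minus strand), crossed over. Its libraries read 12.8, 11.4 and 12.7 CPM in Co.vec buffer and 32.8, 34.1 and 31.3 in Co.vec TGF-β. They read 27.6, 26.3 and 30.1 CPM in LETS1 buffer and 29, 23.5 and 24.9 in LETS1 TGF-β. LETS1 cells were higher in buffer and lower with TGF-β, both called and without overlap, and TGF-β raised the gene in Co.vec cells (1.41) without a call in LETS1 cells (-0.12). The interaction was -1.52 (SE 0.109, adjusted p = 1.07e-12). Its exons overlap ZSWIM4 on the other strand. CSRNP1, an immediate early nuclear protein, rose in Co.vec cells (0.82) without a call in LETS1 cells (-0.05), an interaction of -0.87 (SE 0.0930, adjusted p = 5.78e-08).

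The early response lists held most of the largest negative values. All 13 measured AP-1 factors had an interaction below 0, 9 were called negative, and their median was -0.76, beside -0.0050 for all genes tested. Of all genes tested 51.6% lay below 0 and 0.599% were called negative. The lists were written with earlier results of these data known, so their counts describe and do not test. The named members besides those above were FOSL1 (-0.75) and MAFK (-0.62). Of 20 mRNA decay and stress genes 9 were called negative (median -0.35), among them ZFP36L1 (-0.38) and the transcriptional inhibitor ID1 (-0.53). Of 15 EGR, KLF and IER genes 5 were negative (median -0.18), with IER2 at -0.74 and IER3 at -0.69. Of 16 MAPK feedback genes 5 were negative (median -0.13), with DUSP8 at -0.90 and SPRY2, an inhibitor of receptor tyrosine kinase signalling, at -0.57. Of these 5, the calls of DUSP4 and SPRY2 were lost without the third LETS1 buffer library or without the second LETS1 TGF-β library, which left 3. DUSP6, a brake of ERK (-0.08, adjusted p = 0.954), was not called. Of 18 NR4A receptors and CREB targets 4 were negative (median -0.07): NR4A1, NR4A2, DUSP1 and the clock gene PER1 (-0.57). The same gene can stand on more than 1 list. Exons of CSRNP1, IER2, IER3 and MAFK overlap a gene on the other strand.

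Early TGF-β targets had both called and uncalled members. Of 44 early TGF-β and SMAD target genes 9 were called negative and 30 lay below 0 (median -0.10), against 0.599% and 51.6% of all genes tested. PMEPA1, which sequesters SMADs and lowers TGF-β signalling (chr20:57648392-57711536, minus strand), read 191, 181 and 191 CPM in Co.vec buffer and 1175, 1157 and 1108 in Co.vec TGF-β. It read 247, 249.9 and 272 CPM in LETS1 buffer and 1208, 1164 and 1118 in LETS1 TGF-β. LETS1 cells were higher in buffer without overlap, and the TGF-β groups overlapped. It rose by 2.61 on the log2 scale in Co.vec cells and 2.18 in LETS1 cells, an interaction of -0.43 (SE 0.0628, adjusted p = 3.61e-05). Its exons overlap NKILA on the other strand.

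SMAD7, the inhibitory SMAD (chr18:48919853-48952052, minus strand), read 22.6, 24.2 and 25.5 CPM in Co.vec buffer and 50.6, 45.9 and 49.3 in Co.vec TGF-β, and 35.4, 35 and 43 in LETS1 buffer and 59.8, 52.7 and 50.8 in LETS1 TGF-β. LETS1 libraries lay above Co.vec libraries in both ligand states, though only the buffer difference was called. It rose on TGF-β in both, by less in LETS1 cells, with an interaction of -0.49 (SE 0.102, adjusted p = 0.00846). Without the third LETS1 buffer library, whose value was the highest of that group, the interaction was -0.38 and the adjusted p 0.0653. BHLHE40, a clock repressor and TGF-β target, had an interaction of -0.55 (SE 0.0672, adjusted p = 1.10e-06).

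Other TGF-β targets gave no call. SKIL, a SMAD repressor, rose by 1.65 in Co.vec cells and 1.65 in LETS1 cells, an interaction of 0.0043 (SE 0.0745, adjusted p = 0.997). CCN2, a matrix protein, rose by 2.06 and 1.99, an interaction of -0.07 (SE 0.0921, adjusted p = 0.935). IL11, a cytokine, had -0.13 (SE 0.181, adjusted p = 0.943), SKI 0.13 (SE 0.0825, adjusted p = 0.799) and HBEGF 0.12 (SE 0.284, adjusted p = 0.978). LIF did not rise on TGF-β here: its response was -0.10 in Co.vec cells, not called, and -0.31 in LETS1 cells, called lower. Its level was called higher in LETS1 cells in buffer (0.25), and its interaction was -0.22 (SE 0.0764, adjusted p = 0.325). A missed threshold does not show that the 2 responses were equal.

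TGF-β pathway components showed 1 call among 36 measured (median -0.04), where 0.679% of all genes tested were called. SMAD7 and PMEPA1, both called, were counted among the early targets and not on this list. TGFBR1, the type I receptor, read 63.1, 57.5 and 54.8 CPM in Co.vec buffer and 197, 193 and 187 in Co.vec TGF-β, and 76.2, 66.1 and 78.1 in LETS1 buffer and 245, 242 and 254 in LETS1 TGF-β. It was higher in LETS1 cells in both ligand states (0.33 and 0.36), rose on TGF-β in both, and had an interaction of 0.03 (SE 0.0753, adjusted p = 0.976). The type II receptor TGFBR2 fell in both (interaction 0.05, SE 0.0599, adjusted p = 0.936) and SMAD3 had 0.04 (SE 0.0587, adjusted p = 0.946). GREM1, a secreted BMP antagonist, was the gene called: 8.70, 8.23 and 8.01 CPM in Co.vec buffer, 39.8, 36.8 and 35.8 in Co.vec TGF-β, 21, 18.9 and 21.1 in LETS1 buffer and 58.8, 59.9 and 64.8 in LETS1 TGF-β, an interaction of -0.58 (SE 0.104, adjusted p = 0.000774).

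Of 22 EMT and mesenchymal genes 1 was called, against 0.679% of all genes tested. It was COL1A1, the type I collagen chain (-0.40, SE 0.0935, adjusted p = 0.0206). Its call was lost without the third LETS1 buffer library (-0.31, adjusted p = 0.218), without the second Co.vec buffer library (0.0638) and without the third LETS1 TGF-β library (0.0590). SNAI1 (-0.47, SE 0.153, adjusted p = 0.240), SNAI2 (-0.15, SE 0.356, adjusted p = 0.977), CDH2 (-0.09, SE 0.0649, adjusted p = 0.841), VIM (0.07, SE 0.0609, adjusted p = 0.893) and FN1 (0.05, SE 0.0802, adjusted p = 0.954) were not. SNAI1, CDH2 and FN1 were called higher in LETS1 than in Co.vec cells in both ligand states, SNAI1 by 1.01 in buffer and 0.54 with TGF-β. Of 21 epithelial genes 1 was called, ELF3 (list median 0.08), against 0.679% of all genes tested. E-cadherin (CDH1) fell in both cell types with an interaction of 0.04 (SE 0.0710, adjusted p = 0.967).

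The direction of an interaction can depend on the scale. On the CPM scale, the TGF-β response in LETS1 cells minus that in Co.vec cells had the opposite sign to the log2 interaction for 5 of the 110. Among them are COL1A1 (gain of 112 CPM in Co.vec and 122 in LETS1 cells), GREM1 (29.2 and 40.8), the Eph receptor EPHB2 (80.7 and 86.2), and CORO2A (11.1 and 10.4), a WD-repeat protein with a positive log2 interaction. The difference of the gains was 9.71 CPM (SE 5.55) for COL1A1, 11.7 (SE 2.32) for GREM1, 5.56 (SE 5.72) for EPHB2 and -0.67 (SE 1.79) for CORO2A. EPHB2 was named after its values were seen and kept its call in 3 of 12 leave-outs.

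A smaller set was sorted to LETS1 TGF-β. Among its negative genes the pick was clear for NR5A2, NEAT1, HERC2P2, DDX39B and RUSC1-AS1 only. ELF3, an epithelial ETS factor (chr1:202007945-202017188, plus strand), read 111, 115 and 119 CPM in Co.vec buffer and 47.4, 50.5 and 50.7 in Co.vec TGF-β. It read 106, 111 and 113 CPM in LETS1 buffer and 30.3, 30.1 and 29.6 in LETS1 TGF-β. The buffer groups overlapped, and every LETS1 TGF-β library lay below every Co.vec TGF-β library. The log2 fold changes by TGF-β were -1.22 and -1.87, an interaction of -0.66 (SE 0.0729, adjusted p = 1.12e-07). Its exons overlap ELF3-AS1 on the other strand.

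Overlapping buffer groups and lower LETS1 TGF-β libraries were also seen in TOB1, an antiproliferative factor (-0.38, SE 0.0657, adjusted p = 0.000662), PDK4, the kinase that inhibits pyruvate dehydrogenase (-0.35, SE 0.0686, adjusted p = 0.00287), and NR5A2, a nuclear receptor (-0.56, SE 0.0963, adjusted p = 0.000487). TOB1 read 79.3, 80.1 and 77.2 CPM in Co.vec TGF-β and 59, 61.1 and 60.6 in LETS1 TGF-β, without overlap. It read 177, 188 and 193 CPM in Co.vec buffer and 178, 188 and 187 in LETS1 buffer, where the groups overlapped. In ADM, a vasoactive peptide (-0.55, SE 0.0915, adjusted p = 0.000344), and PER1 (-0.57) the LETS1 libraries lay above the Co.vec libraries in buffer and below them with TGF-β. ADM read 45.9, 51.4 and 51.5 CPM in Co.vec buffer and 55.1, 55.8 and 55.9 in LETS1 buffer, then 28.6, 31.7 and 33.9 in Co.vec TGF-β and 22.2, 25.1 and 24.9 in LETS1 TGF-β. The PER1 call was kept in 3 of 12 fits that each left out 1 library. SCHIP1, a cytoskeletal scaffold, had -1.67 (SE 0.370, adjusted p = 0.0123), with 1.28, 1.39 and 1.41 CPM in Co.vec TGF-β and 0.410, 0.652 and 0.813 in LETS1 TGF-β. SCHIP1 shares exons with IQCJ-SCHIP1, and TOB1 overlaps TOB1-AS1 on the other strand.

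NEAT1, the nuclear RNA that builds paraspeckles (chr11:65422774-65445540, plus strand), read 394, 372 and 339 CPM in Co.vec buffer and 291, 287 and 269.6 in Co.vec TGF-β. It read 392, 419.8 and 365 CPM in LETS1 buffer and 237, 216 and 218 in LETS1 TGF-β. All 3 LETS1 TGF-β libraries lay below the other 9. It fell in both cell types and further in LETS1 cells, an interaction of -0.43 (SE 0.0746, adjusted p = 0.00112). The class also holds HERC2P2 (a pseudogene, -0.37), DDX39B (an RNA helicase, -0.37) and RUSC1-AS1 (an antisense RNA, -0.87), named after their values were seen. Exons of RUSC1-AS1 overlap FDPS and RUSC1 on the other strand. Unless the counting used strand, fragments from the shared bases may have been left out as ambiguous or given to the wrong gene. DDX39B shares exons with ATP6V1G2-DDX39B. The RUSC1-AS1 call was kept in 3 of 12 leave-outs and the DDX39B call in 4. The share of fragments in no annotated gene was also lowest in LETS1 TGF-β libraries, at 2.81% to 2.86%, and its part in these values was not tested.

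ANKRD1, a stress-induced YAP/TAZ target, was sorted to Co.vec TGF-β, though without a clear pick. It read 16.2, 16.6 and 18.3 CPM in Co.vec buffer and 47, 47 and 42.7 in Co.vec TGF-β, then 18.4, 19.8 and 18.2 in LETS1 buffer and 33.3, 32.8 and 35.3 in LETS1 TGF-β. The gain was 1.42 in Co.vec cells and 0.85 in LETS1 cells, an interaction of -0.57 (SE 0.0965, adjusted p = 0.000411), and the TGF-β groups did not overlap. EDN1, the vasoconstrictor endothelin, had -0.32 (SE 0.0701, adjusted p = 0.0123). KHDC4, an RNA binding protein, had -0.44 (SE 0.0882, adjusted p = 0.00337). It was called higher in LETS1 cells in buffer (0.18) and lower with TGF-β (-0.26). TGF-β raised it in Co.vec cells (0.27) and lowered it in LETS1 cells (-0.17), both called. The pick was not clear for EDN1 or KHDC4 either. B3GALT5 had -0.55 (SE 0.127, adjusted p = 0.0208) and was named after its values were seen. The B3GALT5 call was kept in 8 of 12 leave-outs. Of 23 YAP/TAZ targets 5 were called negative (median -0.13), against 0.599% of all genes tested: CCN1, ANKRD1, AJUBA, AMOTL2 (-0.47) and NUAK2 (-0.41).

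Sterol genes leaned the same way. Of 24 cholesterol and SREBP genes 22 lay below 0 (median -0.13), against 51.6% of all genes tested. Called negative were 4, against 0.599% of all genes tested. They were HMGCS1, which makes the precursor of mevalonate, STARD4, a sterol carrier, INSIG1, which holds back SREBP, and SQLE, a squalene oxidase. HMGCS1 read 217, 225 and 212 CPM in Co.vec buffer and 271, 287 and 267 in Co.vec TGF-β. It read 232, 223 and 274 CPM in LETS1 buffer and 219.6, 227 and 238 in LETS1 TGF-β. The buffer groups overlapped and the TGF-β groups did not. It rose in Co.vec cells (0.33) and was not called in LETS1 cells (-0.09), an interaction of -0.42 (SE 0.0769, adjusted p = 0.00184). The interaction was -0.39 for STARD4, -0.44 for INSIG1 and -0.28 for SQLE. The third LETS1 buffer library was the highest of its group for all 4, and without it 2 of them were called (adjusted p = 0.0666 for STARD4 and 0.205 for SQLE). Without the second LETS1 TGF-β library 2 were called as well. Exons of HMGCS1 and STARD4 overlap a gene on the other strand.

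The 13 positive genes were of mixed kinds. XBP1, a transcription factor of the secretory pathway and the unfolded protein response (chr22:28794555-28800597, minus strand), read 227, 231 and 243 CPM in Co.vec buffer and 103, 106 and 96.2 in Co.vec TGF-β. It read 130.4, 133 and 132 CPM in LETS1 buffer and 80.9, 80.4 and 79 in LETS1 TGF-β. It was lower in LETS1 cells in both ligand states without overlap, and fell less on TGF-β in LETS1 cells (-0.72) than in Co.vec cells (-1.20), an interaction of 0.48 (SE 0.0644, adjusted p = 6.11e-06). It was the 1 called gene of 24 on the ATF4 and ER stress list, against 0.679% of all genes tested. SPDEF, an epithelial ETS factor, had 0.44 (SE 0.0931, adjusted p = 0.00787), and C2orf72 0.59 (SE 0.110, adjusted p = 0.00149).

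IFIT3 and IFIT2, interferon-induced RNA binding proteins, rose on TGF-β in both cell types and by more in LETS1 cells. IFIT3 read 84.5, 82.9 and 87.9 CPM in Co.vec buffer and 95.3, 93.9 and 89.3 in Co.vec TGF-β. It read 85.9, 80.2 and 76.4 CPM in LETS1 buffer and 112, 107 and 112 in LETS1 TGF-β. The buffer groups overlapped, and with TGF-β the LETS1 libraries lay above. The interactions were 0.32 (SE 0.0694, adjusted p = 0.00846) and 0.33 (SE 0.0722, adjusted p = 0.0123). They were the 2 called of 33 measured genes on the interferon list, whose median was 0.13, while 0.0803% of all genes tested were called positive. Without the third LETS1 buffer library neither was called (adjusted p = 0.0684 for IFIT3 and 0.111 for IFIT2). SLFN5 (a Schlafen gene) had 0.45 and TAP1, the peptide transporter of antigen presentation, 0.38, and neither stood on that list. The TAP1 call was kept in 6 of 12 leave-outs, and exons of TAP1 and IFIT2 overlap a gene on the other strand.

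CDH6, a cadherin (0.44, SE 0.0879, adjusted p = 0.00337), GPAM, the first acyltransferase of glycerolipid synthesis (0.42, SE 0.0857, adjusted p = 0.00438), VASN, a membrane protein that binds TGF-β (0.41, SE 0.0969, adjusted p = 0.0243), and IRAK2, a kinase of the interleukin-1 pathway (0.39, SE 0.0973, adjusted p = 0.0364), gained more on TGF-β in LETS1 cells. The VASN and IRAK2 calls were each kept in 5 of 12 leave-outs. GPAM went from 27.1, 23.9 and 23.6 to 37.5, 33.8 and 37.4 CPM in Co.vec cells. In LETS1 cells GPAM went from 55.9, 51.5 and 58 to 105, 109.8 and 108 CPM. FGA, the fibrinogen alpha chain, had 0.32, was named after its values were seen and kept its call in 4 of 12 leave-outs.

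The lists that follow had 2 calls or fewer each, where 0.679% of all genes tested were called. In a list of 13 to 22 genes 1 call already lies above that share, and 0 calls do not lie clearly below it. SLC2A3 (-0.64), a glucose transporter, and ADM were the 2 called of 22 hypoxia and glycolysis genes, HES1 the only one of 13 Notch genes, BTG2 (-0.53) the only one of 17 cell cycle inhibitors and p53 targets, and CLCF1 (-0.50) and EREG the 2 of 18 growth factors. The BTG2 and EREG calls were each kept in 5 of 12 leave-outs. Without the third Co.vec TGF-β library 4 growth factors were called. No gene was called among 19 SRF and MRTF targets, 15 heat shock genes, 20 mitosis genes, 22 replication genes, 16 lung lineage genes and 13 mitochondrially encoded genes. Their medians ran from -0.08 to 0.04. Among these 105 genes edgeR gave 10 with an unadjusted p under 0.05, and DESeq2 and limma-voom called 0 as well. Leaving out 1 library gave at most 2 calls in any of these lists (heat shock genes, without the first LETS1 buffer library). In all, 57 of the 110 called genes and 53 of the 97 negative genes stood on a list.

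**Figure D5:**
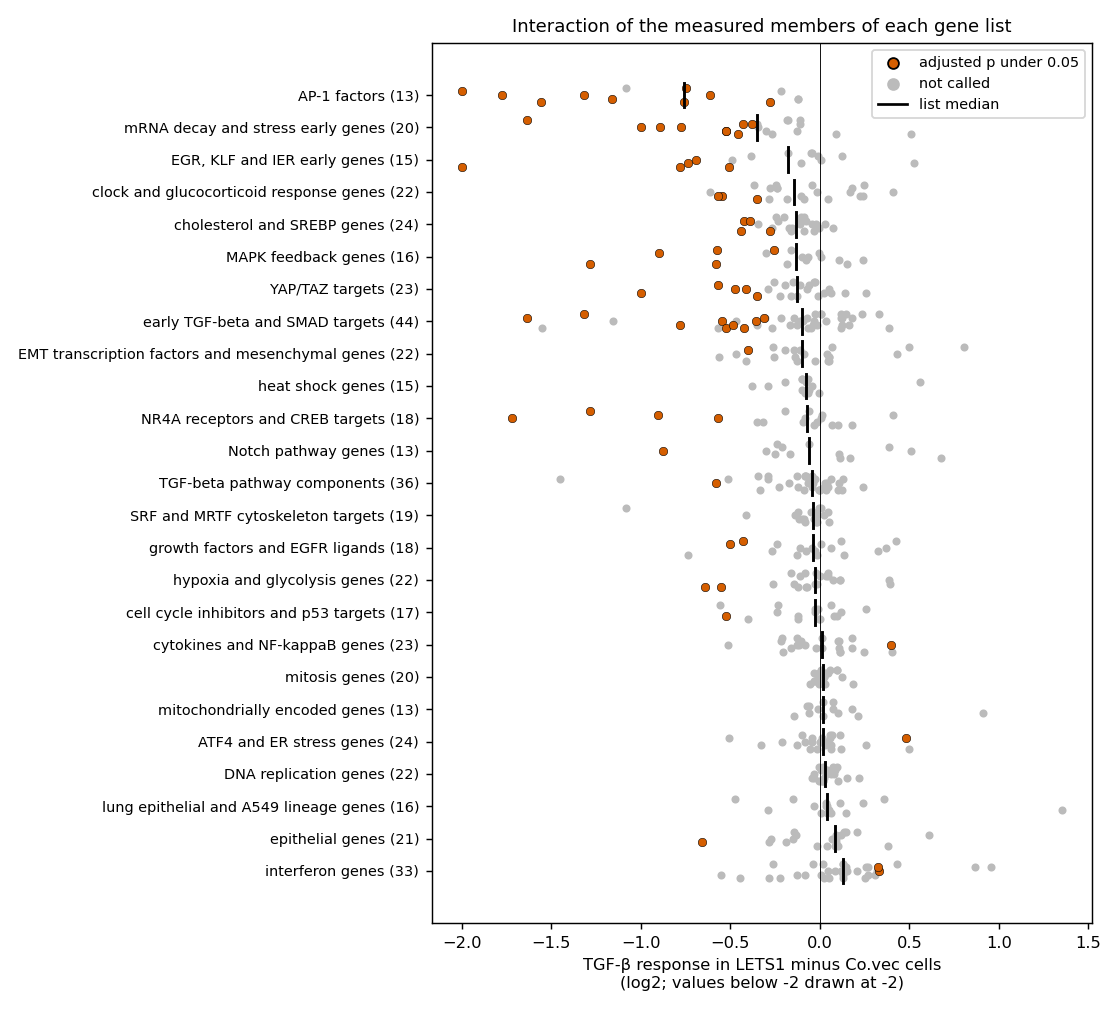
Interaction (x axis, log2) of each measured gene of 25 lists (y axis, number measured in brackets), with called genes in orange and a black bar at the list median. Values below -2 are drawn at -2. The AP-1 list has a median of -0.76 and no value above 0, while the mitosis and replication lists lie near 0.

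The negative genes were shorter and better expressed than all genes tested, and the positive genes leaned the same way in most measures. Their median span was 13156 bases against 27851 for all genes tested, with 6 against 9 exons, and 39.2% spanned under 10000 bases against 25.8%. Protein-coding genes made up 90.7% against 83.0%, and the median level was 47.1 against 16.9 CPM. For the 13 positive genes the values were 18532 bases, 6 exons, 23.1% under 10000 bases, 100% protein-coding and 33.8 CPM. A call is easier to reach at higher counts, so the level is tied to how the genes were selected. Span, exons and coding share were not compared at matched level.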

How the data were processed

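RNA of 12 A549 libraries was sequenced and counted. Per the submitters' processing notes, cutadapt 2.10, STAR 2.7.5a, HTSeq 0.12.4 and the build GRCh38 were used. The authors deposited raw counts, whole fragments per gene for 60676 genes. They also gave 5 rows for fragments assigned to no single gene (not aligned, in no annotated gene, ambiguous between genes and the like). Those 5 rows stayed out of library sizes and tests. Of all fragments, 80.0% to 81.1% were counted in genes and 10.1% to 10.9% were ambiguous between genes. No source used here names the strand setting or annotation release. A table of gene names gave symbols (60357 genes matched) and coordinates were taken from GENCODE release 29 (GRCh38).

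Low counts were filtered with filterByExpr (edgeR 4.0.16, R 4.3.3), leaving 16192 genes, which were scaled by TMM and fitted with a robust quasi-likelihood model of 1 mean per group over all 12 libraries (common biological coefficient of variation 0.0413). The 5 contrasts tested were 2 LETS1 effects, 2 TGF-β responses and the interaction. Adjusted p is by Benjamini-Hochberg over all genes of a contrast, with a threshold of 0.05. SE was computed as log2 fold change / √F. CPM used TMM-scaled totals. The model was also run on counts simulated from its own fitted means and dispersions, which cannot address technical replicates or 1 outlying library. The sort by group and the CPM scale have no test. The members, lists and tests were chosen with earlier results of these data known. Named genes had an adjusted p under 0.05, a symbol and at least 1 CPM in the highest group: the 10 most positive, the 10 most negative and the 5 smallest p per sorted group, with genes fixed by name and, per list, all called members where 5 or fewer were called and 2 to 6 otherwise. B3GALT5, DDX39B, HERC2P2, RUSC1-AS1, EPHB2 and FGA were added after their values were seen. Another called gene is not reported here, though counts include it.

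Replicate pairs within a group differed by more than counting error (chi-square per degree of freedom 2.16 to 5.24 over 12 pairs). Residuals of same-numbered libraries correlated at -0.0574 to 0.0473, none of 18 over 0.1, so replicates were treated as unpaired. A correlation over all genes cannot exclude a pairing that touches only some of them. Alternatives were RLE scaling, no filter, DESeq2 1.42.0, limma-voom (limma 3.58.1), a size threshold, a stricter sort, the CPM scale, a replicate block and leaving out each library.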

Additional observations from a re-analysis of the deposited data

Results flagged for a closer look

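Each gene below stands out because its TGF-β response differed between LETS1 and Co.vec cells by the interaction test itself (edgeR, adjusted p under 0.05). The value in brackets is the log2 response in LETS1 cells minus that in Co.vec cells. AP-1 and related early factors gave FOSB (-5.34), FOS (-1.77), ATF3 (-1.56), JUNB (-1.32), JUN (-1.16), FOSL1 (-0.75) and MAFK (-0.62). Zinc finger and immediate early genes gave EGR1 (-4.41), KLF10 (-0.78), KLF6 (-0.51), IER2 (-0.74), IER3 (-0.69) and CSRNP1 (-0.87), and orphan receptors gave NR4A1 (-1.72), NR4A2 (-0.90) and NR5A2 (-0.56). Phosphatases and other brakes of MAP kinase signalling gave DUSP1 (-1.29), DUSP8 (-0.90), DUSP5 (-0.58), SPRY2 (-0.57) and DUSP4 (-0.26). Stress and mRNA decay genes gave GADD45B (-1.64), PPP1R15A (-0.78), ZFP36 (-0.90), ZFP36L1 (-0.38) and BTG2 (-0.53).

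Among TGF-β targets and secreted factors the values were PMEPA1 (-0.43), SMAD7 (-0.49), GREM1 (-0.58), COL1A1 (-0.40), ID1 (-0.53), BHLHE40 (-0.55), EDN1 (-0.32), CLCF1 (-0.50), EREG (-0.43) and ADM (-0.55). Hippo and Notch targets gave CCN1 (-0.997), ANKRD1 (-0.57), AMOTL2 (-0.47), NUAK2 (-0.41), AJUBA (-0.35) and HES1 (-0.88). Genes of metabolism and sterol handling gave SLC2A3 (-0.64), PDK4 (-0.35), INSIG1 (-0.44), HMGCS1 (-0.42), STARD4 (-0.39) and SQLE (-0.28). RNA genes and pseudogenes gave MIR23AHG (-1.52), NEAT1 (-0.43), RUSC1-AS1 (-0.87) and HERC2P2 (-0.37). The remaining negative values were SCHIP1 (-1.67), ELF3 (-0.66), PER1 (-0.57), TOB1 (-0.38), KHDC4 (-0.44), DDX39B (-0.37), B3GALT5 (-0.55) and EPHB2 (-0.28). The positive values were C2orf72 (0.59), XBP1 (0.48), SLFN5 (0.45), CDH6 (0.44), SPDEF (0.44), GPAM (0.42), VASN (0.41), CORO2A (0.40), IRAK2 (0.39), TAP1 (0.38), IFIT2 (0.33), IFIT3 (0.32) and FGA (0.32).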

How the results depend on the processing

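The sign of the interaction was the same for 110 of 110 called genes under RLE scaling, no filter, the replicate block, DESeq2, limma-voom and all 12 leave-outs. RLE scaling called 112 genes, DESeq2 111 and limma-voom 105. Without the filter on low counts 136 were called, 28 of them positive. Asking for a log2 interaction of at least 1 left 12 genes, 12 negative and 0 positive. Asking for a clear pick left 20 genes in Co.vec buffer, 1 in Co.vec TGF-β, 16 in LETS1 buffer and 7 in LETS1 TGF-β. Leaving out 1 library at a time gave 78 to 134 called genes, 70 to 113 negative and 8 to 21 positive, with 39 to 66 sorted to Co.vec buffer, 4 to 17 to Co.vec TGF-β, 20 to 31 to LETS1 buffer and 15 to 25 to LETS1 TGF-β. The low total came without the third LETS1 buffer library, where 74 of the 110 were still called and 8 were positive with 4 sorted to Co.vec TGF-β. Without the third Co.vec TGF-β library 21 were positive and 17 were sorted to that group. Over all 12 leave-outs 66 of the 110 were called each time. Of the named genes the call was kept in 3 of 12 for PER1, EPHB2 and RUSC1-AS1, 4 for DDX39B and FGA, 5 for BTG2, EREG, IRAK2 and VASN, 6 for CORO2A, DUSP4 and TAP1, 8 for AJUBA, B3GALT5 and SQLE, 9 for COL1A1 and 10 for EDN1, SPRY2 and STARD4. It was lost in a single leave-out for SMAD7, IFIT2 and IFIT3 (the third LETS1 buffer library), SCHIP1 (the first LETS1 TGF-β, adjusted p = 0.0683), SPDEF (the second LETS1 TGF-β, 0.0548) and HERC2P2 (the first Co.vec TGF-β, 0.0501). Residuals of same-numbered libraries did not correlate over 0.1 across all genes. The replicate block called 106 genes, 102 of the 110. With it DUSP4 (adjusted p = 0.0691), EPHB2 (0.0563), IRAK2 (0.0531) and PER1 (0.0517) lost the call. DESeq2, in which 3453 genes had no adjusted p, lost BTG2 (0.0557), RUSC1-AS1 (0.0648) and PER1 (0.0982). Without the filter EPHB2 (0.0573) and PER1 (0.0523) were lost. On the CPM scale the sign reversed for COL1A1 (9.71), GREM1 (11.7), EPHB2 (5.56) and CORO2A (-0.67). A gain in CPM depends on the starting level as well as on the fold. The CPM values of EPHB2 (SE 5.72) and CORO2A (SE 1.79) were smaller than their SE, so their sign on that scale is not settled. FOSB and SCHIP1 were near 1 CPM or lower in at least 1 group, which limits the precision of their fold changes.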
